A study of Mus musculus with 22 samples.

Results

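The comparison concerned colon of PPAR γ fl/fl; Villin Cre+ mice (VC+, 4 arrays) and PPAR γ fl/fl; Villin Cre- mice (VC-, 4 arrays) on day 7 of 2.5% dextran sodium sulfate (DSS) in the drinking water, which makes 8 of the 22 arrays of the series. The other 14 arrays came from day 0, without DSS (3 VC+ and 3 VC-), and from day 2 of DSS (5 VC+ and 3 VC-). Both genotypes carried the floxed Pparg alleles, and VC+ mice also carried a Cre recombinase driven by the Villin promoter, so that the deletion falls in intestinal epithelial cells (IEC) and stromal, muscle, nerve and immune cells keep an intact gene. The study's methods describe mice of a mixed FVB/C57BL/6 background and mice of a C57BL/6J background; the array labels name no line, and ages were not given in the sources used here. RNA came from homogenized colonic tissue, labelled as colonic mucosa, with 1 Affymetrix mouse expression array per sample. Of the probe sets, 18194 genes were represented by 1 probe set each, the one with the widest interquartile range over the 22 arrays, and the 9097 most variable genes were tested. The labels do not say that the arrays of a group came from separate mice, so p-values measure only the spread between these samples.

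PPAR γ is a nuclear receptor that binds DNA as a partner of a retinoid X receptor and turns on genes of fatty acid handling and differentiation, and in the colon it is most abundant in epithelial cells. DSS damages the colonic epithelium. The days that follow bring loss of surface cells, entry of leukocytes, activation of the stroma, and renewed division of crypt cells that closes the wounds. The comparison at day 7 asks how colon with and without PPAR γ in the epithelium differs.

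The targeted gene was checked first. The Pparg signal on the log2 scale was 10.35, 10.08, 8.54 and 6.26 in VC+ colon, against 9.82, 7.39, 8.38 and 8.57 in VC- colon. The groups overlapped, with the highest and the lowest of the 8 values both in VC+, and the difference of 0.27 had an exact permutation p of 0.8 (two-sided; 70 splits, of which the smallest possible p is 0.0286). On day 0 Pparg lay between 8.50 and 8.83 in VC+ and between 9.58 and 9.64 in VC-, and on day 2 between 6.87 and 9.54 in VC+ and between 9.87 and 10.96 in VC-, so the genotypes did not overlap on either earlier day. On day 2 the distal colon gene Hoxb13 was 2.88 to 3.08 in VC-, 3.07 on VC+ replicate 2 and 9.45 to 12.42 on the other VC+ arrays. VC+ replicate 2 had the highest Pparg of its group (9.54). On day 0 Hoxb13 was 7.29 to 9.67 in VC-, 12.42 on VC+ replicate 1 and 2.88 to 3.09 on the other VC+ arrays. Genotype and position along the colon therefore cannot be fully told apart on day 0 or day 2. The position of the probe set relative to the deleted exons is not given in the sources used here, and whole tissue holds cells that keep the gene, so the day 7 values do not check the deletion.

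Several arrays of day 7 stood apart, and they bear on each result below. VC- replicate 2 had a Vil1 signal of 8.46, against 12.26 to 12.85 on the other VC- arrays and 12.04 to 12.63 on the VC+ arrays. Vil1 encodes villin of the epithelial brush border. The same array had a Prss2 signal of 14.74 and VC+ replicate 4 one of 11.20, against 3.59 to 4.07 on the other 6. Prss2 encodes a trypsinogen of the pancreas. VC- replicate 2 correlated with the other VC- arrays at a mean r of 0.743 over genes, against 0.906 to 0.943 for the VC+ arrays within their group, and it lay alone on the first principal component (60.3% of the variance). VC- replicate 1 correlated at 0.975 and 0.972 with VC+ replicates 1 and 2 and at 0.668 to 0.917 with its own group, while VC+ replicate 3 correlated at 0.976 with VC- replicate 3. These are correlations across genes, which are not independent replicates. Xist stood at 2.03 to 2.08 on all 8 arrays, and the distal colon gene Hoxb13 at 6.88 on VC+ replicate 4 and 9.62 on VC- replicate 4, against 2.86 to 3.81 on the rest.

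**Figure D1:**
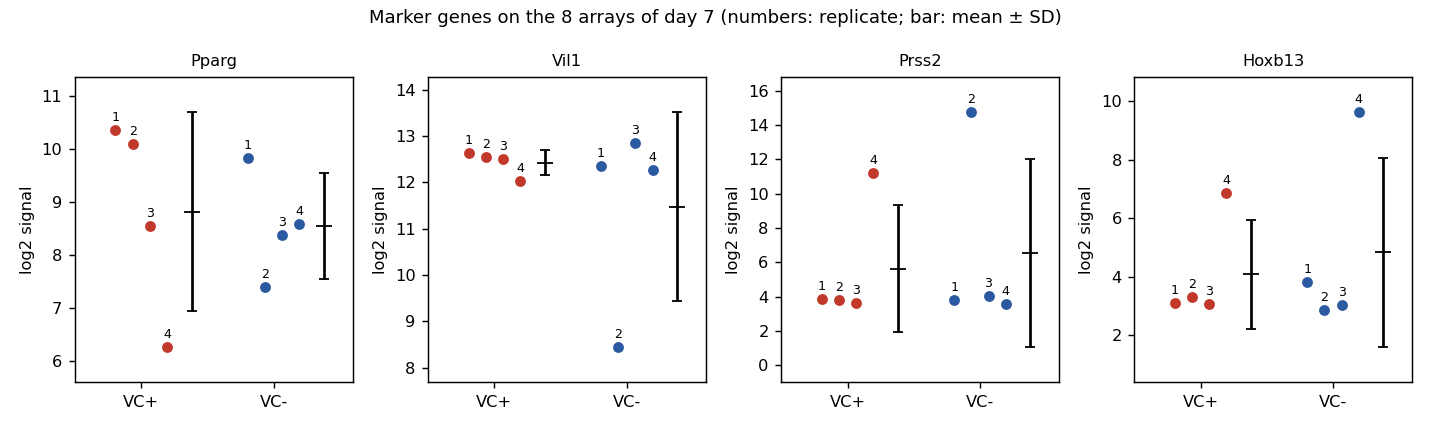
Log2 signal of Pparg, Vil1, Prss2 and Hoxb13 on the 4 VC+ and 4 VC- arrays of day 7 (points numbered by replicate; bar, mean ± SD). Vil1 is 8.46 on VC- replicate 2 and at least 12.04 on every other array, and Prss2 is high on VC- replicate 2 and VC+ replicate 4.

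No gene was called at day 7. In limma's fit over the 22 arrays, 0 of 9097 tested genes (0%) had a Benjamini-Hochberg adjusted p under 0.05, and 1291 genes (14.2%) had an unadjusted p under 0.05, 715 with a higher mean in VC+ (7.86%) and 576 with a lower one (6.33%). The lowest adjusted p, 0.241, belonged to Prpf4, which encodes a spliceosome protein. Prpf4 measured 6.35, 6.07, 6.59 and 6.33 in VC+ against 5.77, 5.18, 5.37 and 5.33 in VC-, a difference of 0.92 ± 0.168 (SE). All 4 VC+ arrays lay above all 4 VC- arrays. The median difference over the tested genes was 0.08, and 56.3% of them had a higher mean in VC+. Over all 18194 genes this share was 66.3%, which is the one to set beside the counts of higher or lower means below. The ± SE and p-values of this fit use 1 estimate of spread per gene, shared by all days. Where arrays spread more on day 7, these values are too small for day 7. For Bub1 the SD in VC+ and VC- was 0.993 and 1.87 on day 7, 0.131 and 0.227 on day 0, and 0.898 and 0.168 on day 2. With only the compared groups in the fit, 320 genes had an unadjusted p under 0.05, and 0 were called.

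The day 7 result turned on single arrays. VC- replicate 1 and VC+ replicate 3 each lay near the other genotype, and leaving out such an array separates the groups by construction, so the counts without them are no evidence of a difference. Leaving out VC- replicate 1 gave 1213 called genes, 542 higher in VC+ (5.96%) and 671 lower (7.38%). Leaving out VC+ replicate 3 gave 74, of which 59 were higher (0.649%) and 15 lower (0.165%). Leaving out VC- replicate 2, the array with little villin, gave 1 called gene, and the genes at an unadjusted p under 0.05 then numbered 390 higher (4.29%) and 248 lower (2.73%). The other arrays, left out in turn, gave 0. Array quality weights, estimated from the same values, gave 1592 called genes. For replicates 1 to 4 they were 0.344, 0.0916, 0.794 and 1.99 in VC-, and 1.99, 1.76, 0.583 and 0.389 in VC+. VC- replicate 1 and VC+ replicate 3 thus counted less, so this count is no evidence of a difference either. The part of the villin, pancreas and Hoxb13 signals of single arrays in the results below was not tested beyond these values.

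Genes of mitosis had the largest median difference at day 7 among the 41 gene lists examined. All 38 mitosis genes on the array had a higher mean in VC+ than in VC-, with a median difference of 1.79, against 0.03 over the 18194 genes. All 35 that were tested had an unadjusted p under 0.05 and a higher mean in VC+, where 7.86% of all tested genes did, and none was called. Bub1, a kinase of the spindle checkpoint, measured 8.39, 7.82, 6.20 and 8.18 in VC+ against 7.80, 3.55, 4.21 and 5.23 in VC-. VC- replicate 1 lay among the VC+ arrays, and the other 3 VC- arrays lay below all 4 VC+ arrays. The mean difference of Bub1 was 2.45 ± 0.678 (SE), or 5.48-fold (adjusted p = 0.303).

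Ccnb2, a B-type cyclin that drives entry into mitosis, measured 9.86, 9.43, 8.06 and 9.35 in VC+ against 9.58, 5.80, 5.02 and 6.95 in VC-. The mean difference was 2.34 ± 0.67 (SE; adjusted p = 0.303), and again only VC- replicate 1 reached the VC+ range. Aurka, the Aurora kinase of the spindle poles, measured 8.36, 7.71, 6.13 and 8.28 in VC+ against 7.84, 2.60, 3.05 and 5.71 in VC-, a difference of 2.82 ± 0.842 (SE). Nusap1, which bundles spindle microtubules, differed by 2.34 ± 0.672 (SE). No gene of the mitosis list separated the 8 arrays by genotype without overlap. Ska3, a kinetochore protein that is in none of the lists, had the lowest unadjusted p after Prpf4 (8.81e-05, adjusted p = 0.303). It measured 5.88, 5.10, 4.31 and 5.48 in VC+ and 4.32, 3.21, 3.67 and 4.00 in VC-, and the groups overlapped only at VC+ replicate 3 and VC- replicate 1.

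Genes of DNA replication differed in the same direction and by less. The median difference over 43 genes on the array was 1.00, 41 of the 43 means were higher in VC+, and 30 of 40 tested members had an unadjusted p under 0.05 with a higher mean, beside 7.86%. Mcm7, a subunit of the replicative helicase, measured 10.21, 9.56, 8.14 and 9.60 in VC+ against 8.68, 7.76, 7.66 and 8.07 in VC-, a difference of 1.33 ± 0.347 (SE). VC+ replicate 3 lay below VC- replicate 1, and the other 3 VC+ arrays lay above every VC- array. Rfc4, of the clamp loader, differed by 1.87 ± 0.464 (SE), Lig1, the ligase that joins Okazaki fragments, by 1.57 ± 0.412 (SE) and Orc1, of the origin recognition complex, by 1.05 ± 0.294 (SE). Rrm2, the S phase subunit of ribonucleotide reductase, measured 10.48, 9.89, 7.07 and 10.78 in VC+ against 8.75, 6.97, 6.22 and 7.01 in VC-. The salvage kinases Tk1 and Dck differed by 2.02 ± 0.568 and 1.15 ± 0.305 (SE), and Dhodh, of pyrimidine synthesis, by 1.21 ± 0.335 (SE). Of the 26 tested genes of pyrimidine and deoxynucleotide synthesis, 8 had an unadjusted p under 0.05 with a higher mean in VC+, beside 7.86% of all tested genes, and 1 with a lower mean, beside 6.33%. The list median was 0.16.

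The size of these differences depended on which arrays were in the fit. Without the 3 arrays with Prss2 signal (VC+ replicate 4 and VC- replicate 2 of day 7, and 1 VC- array of day 0) the mitosis and replication medians were 1.34 and 0.82, and 7 of 35 mitosis genes and 17 of 40 replication genes had an unadjusted p under 0.05 with a higher mean in VC+, beside 3.95% of all tested genes (3.26% had a lower mean). With only the compared groups in the fit, 16 of 35 and 17 of 40 did, beside 2.21% (1.31% with a lower mean). Without VC- replicate 2 the median differences were 1.47 and 0.86, and 27 of 35 and 27 of 40 did, beside 4.29%. Leaving out the array of one genotype that lies nearest to the other genotype widens a difference by construction, so the next values are a description and give no support. Without VC- replicate 1 the medians were 2.46 and 1.26, and 34 of 35 and 23 of 40 were called, beside 5.96%. Without VC+ replicate 3 they were 2.25 and 1.36, and 1 of 35 and 10 of 40 were called, beside 0.649%. With Vil1 as a covariate, an alternative chosen after seeing the data, the medians were 1.63 and 0.85. In bulk tissue, more cells of a type and more RNA per cell cannot be told apart, nor can the dividing cells be placed in the epithelium, the stroma or the leukocytes.

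**Figure D2:**
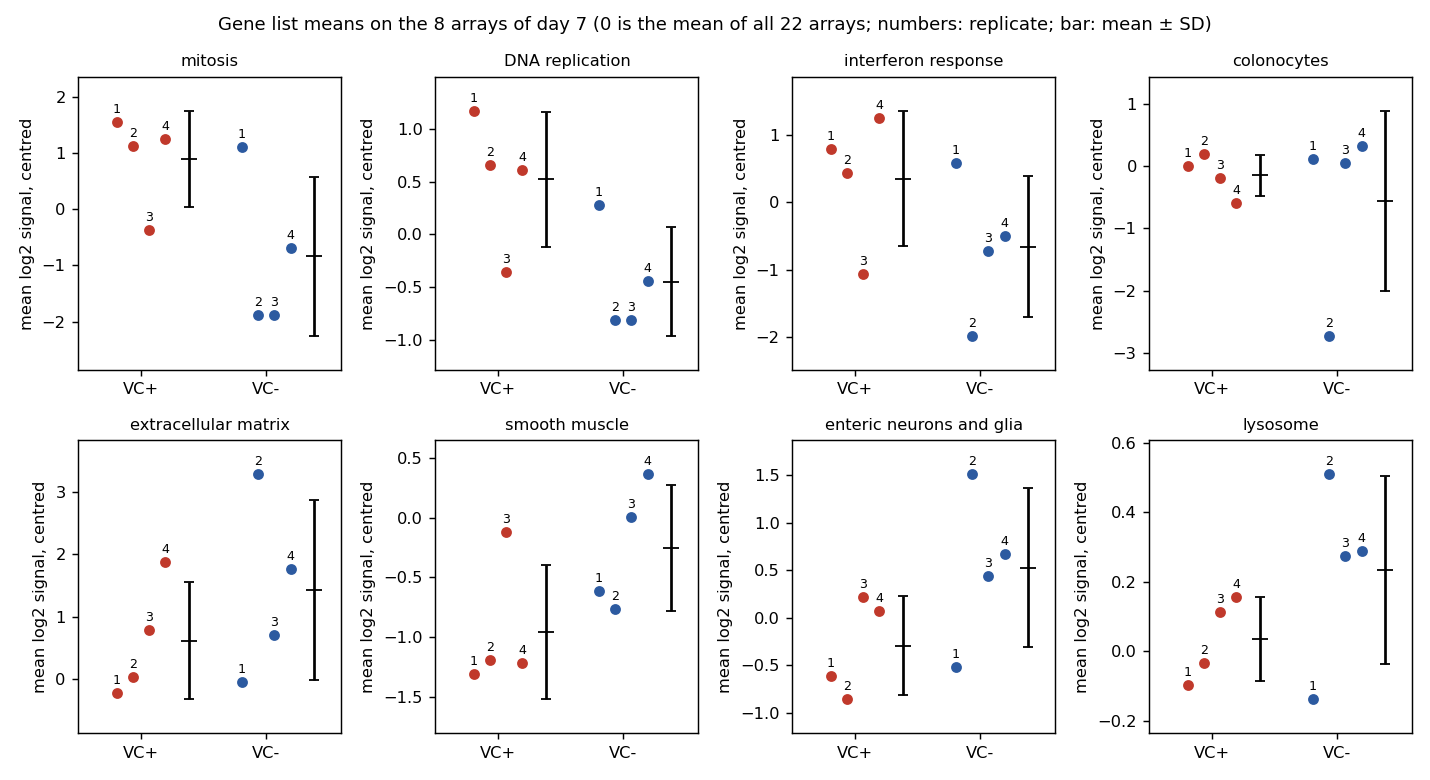
Mean log2 signal of the genes of 8 lists on each array of day 7, each gene centred on its mean over the 22 arrays (points numbered by replicate; bar, mean ± SD). In the mitosis panel VC- replicate 1 (1.11) sits with VC+ replicates 1, 2 and 4 (1.13 to 1.55), and VC+ replicate 3 (-0.37) lies between these and VC- replicates 2 to 4 (-1.89 to -0.70).

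The promoters of 4 named cell division genes are shown because mitosis and replication genes had the largest positive medians of the lists. The sequences are RefSeq's (GRCm38.p6), run 5′ to 3′ over the 250 bases before the first listed start of each gene, and capitals mark matches on either strand to CCAAT, to the letters TTTGAA of the CHR element, and to TTTCCCGC or TTTGGCGC as forms of the E2F site.
Bub1 (chr2:127831860-127832109, minus strand): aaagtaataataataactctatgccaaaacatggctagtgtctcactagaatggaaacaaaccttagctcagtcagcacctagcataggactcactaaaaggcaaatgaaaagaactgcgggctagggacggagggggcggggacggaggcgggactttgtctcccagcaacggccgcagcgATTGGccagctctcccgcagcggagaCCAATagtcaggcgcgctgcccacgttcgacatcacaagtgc
Ccnb2 (chr9:70421555-70421804, minus strand): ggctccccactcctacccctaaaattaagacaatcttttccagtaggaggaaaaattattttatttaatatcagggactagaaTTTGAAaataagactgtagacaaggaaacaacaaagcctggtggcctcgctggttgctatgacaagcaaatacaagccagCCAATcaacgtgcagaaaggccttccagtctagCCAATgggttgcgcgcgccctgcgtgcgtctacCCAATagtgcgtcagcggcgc
Aurka (chr2:172370571-172370820, minus strand): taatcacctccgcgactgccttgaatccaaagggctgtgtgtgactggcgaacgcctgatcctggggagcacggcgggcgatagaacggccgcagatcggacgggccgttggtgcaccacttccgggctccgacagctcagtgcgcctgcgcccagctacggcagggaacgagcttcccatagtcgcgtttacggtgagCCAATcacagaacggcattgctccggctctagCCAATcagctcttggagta
Mcm7 (chr5:138171884-138172133, minus strand): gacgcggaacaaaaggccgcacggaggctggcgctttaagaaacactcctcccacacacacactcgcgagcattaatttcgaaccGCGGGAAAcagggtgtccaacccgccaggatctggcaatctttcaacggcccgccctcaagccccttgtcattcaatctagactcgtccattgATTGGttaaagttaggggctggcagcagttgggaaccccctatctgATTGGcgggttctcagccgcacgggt
CCAAT is the core of the site for the factor NF-Y, which binds in many promoters of mitotic genes, and E2F sites are typical of replication genes. CCAAT stood 2 times in the Bub1 window, 3 times in Ccnb2, 2 times in Aurka and 2 times in Mcm7. TTTGAA stood in the Ccnb2 window and the E2F letters, as their reverse complement, in the Mcm7 window, and the Nusap1, Rfc4 and Lig1 windows held none of the letters searched there. Promoters were found for 29 of the 38 mitosis genes and 34 of the 43 replication genes. Of these, 75.9% and 55.9% held CCAAT, against 34.5% of all 27025 promoters. TTTGAA stood in 31% of mitosis promoters, against 16.3% of all, and the E2F letters in 17.6% of replication promoters, against 1.35% of all. The E2F letters stood in 0% of mitosis promoters and TTTGAA in 11.8% of replication promoters. Of 28 promoters of the pyrimidine and deoxynucleotide list, 32.1% held CCAAT, 14.3% held TTTGAA and 0% held the E2F letters. A match of letters is a description and not evidence of a bound factor.

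The medians of these lists had the opposite sign on the earlier days. The median difference of the mitosis genes was -0.36 on day 0, -0.76 on day 2 and 1.79 on day 7, and that of the replication genes -0.26, -0.71 and 1.00. On day 2 Hoxb13 was high on most VC+ arrays and on no VC- array. On day 0 it was high on every VC- array and, among VC+ arrays, on replicate 1 only. Genotype and colon position therefore cannot be fully told apart on either day. Among the day 0 arrays, VC- replicate 3 had a Prss2 signal of 13.77. Xist was 11.52 on VC+ replicate 3 and 11.45 on VC- replicate 2 of day 0, and low on all arrays of day 7. The mean signal of the mitosis list on day 7 was 1.55, 1.13, -0.37 and 1.25 in VC+ and 1.11, -1.88, -1.89 and -0.70 in VC-, each gene centred on its mean over the 22 arrays. On day 0 it was 0.43 to 0.49 in VC+ and 0.68 to 0.98 in VC-. In the test of the genotype difference at day 7 minus the day 0 difference, 0 of 9097 genes (0%) were called, and 771 had an unadjusted p under 0.05, 502 with a larger difference at day 7 (5.52%) and 269 with a smaller one (2.96%). The 502 held 27 of 35 tested mitosis genes and 29 of 40 replication genes. The part of the Hoxb13, Prss2 and Xist signals of the day 0 arrays in these 2 counts was not tested.

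**Figure D3:**
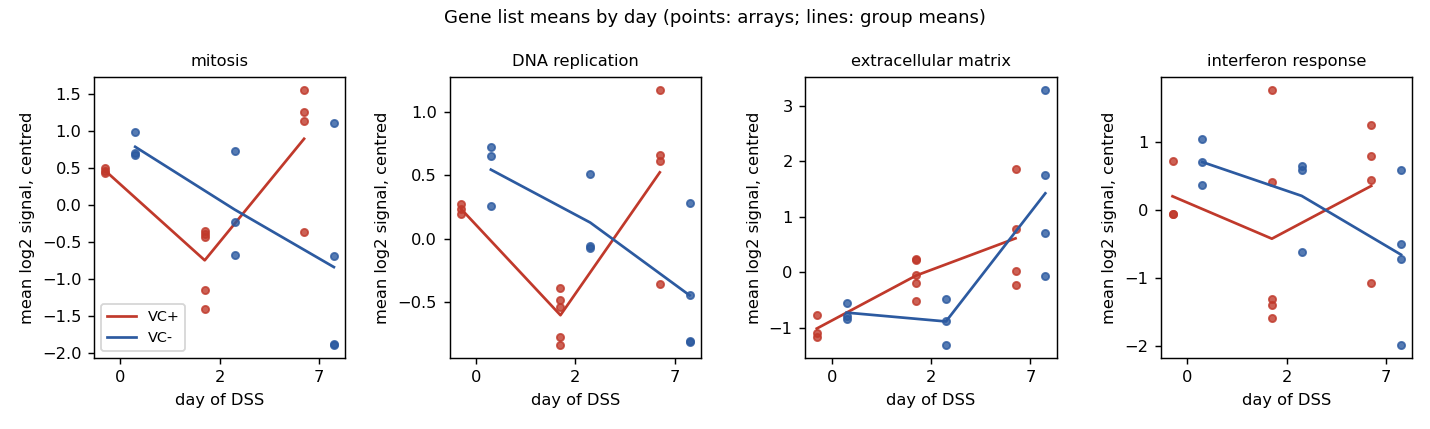
Mean log2 signal of 4 gene lists by day of DSS in VC+ and VC- colon (points, arrays; lines, group means; genes centred on the mean of the 22 arrays; days are evenly spaced on the axis). The group mean of the mitosis list is lower in VC+ than in VC- on days 0 and 2, and on day 7 VC+ spans -0.37 to 1.55 and VC- spans -1.89 to 1.11.

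Stromal genes differed the other way. Of 37 genes of extracellular matrix and wound repair, 34 had a lower mean in VC+, with a median difference of -0.95, and 4 of 34 tested had an unadjusted p under 0.05 with a lower mean, beside 6.33% of all tested genes. Postn, a matrix protein that fibroblasts secrete in healing tissue, measured 11.99, 11.52, 13.02 and 11.19 in VC+ against 12.31, 13.75, 13.47 and 13.45 in VC-, a difference of -1.32 ± 0.376 (SE; adjusted p = 0.303). The groups overlapped at VC+ replicate 3 and VC- replicate 1 only. Col6a1 and Col6a3, chains of collagen VI, differed by -1.30 ± 0.454 and -1.21 ± 0.457 (SE). Mmp7, the matrix protease matrilysin, which epithelial cells make, went against the list at 7.06, 9.14, 3.27 and 6.96 in VC+ and 4.80, 3.56, 2.85 and 2.77 in VC-. The matrix list leaned on VC- replicate 2, whose list mean was 3.29 against -0.06 to 1.76 on the other VC- arrays and -0.23 to 1.87 on the VC+ arrays. Without that array the median was -0.32 and 1 of 34 had an unadjusted p under 0.05 with a lower mean, beside 2.73%.

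Of 16 smooth muscle markers, 14 had a lower mean in VC+, the median was -0.85, and 6 of 16 had an unadjusted p under 0.05 with a lower mean, beside 6.33%. Without VC- replicate 2 the median was -0.95 and 9 of 16 did, beside 2.73%. Myh11, the myosin heavy chain of smooth muscle, measured 10.95, 11.04, 12.05 and 10.91 in VC+ against 11.56, 11.88, 13.14 and 12.78 in VC-, a difference of -1.10 ± 0.333 (SE). VC+ replicate 3 lay within the VC- range, and the other 3 VC+ arrays lay below it. Acta2, the actin of smooth muscle and myofibroblasts, differed by -1.48 ± 0.469 (SE), Myl9, a myosin light chain, by -1.03 ± 0.372 (SE) and the small heat shock protein Hspb8 by -1.33 ± 0.58 (SE). Hspb8 was 7.36 on VC- replicate 2, against 3.44 to 5.60 on the other VC- arrays and 3.10 to 4.87 in VC+. With each array left out its difference was -1.89 to -0.59. Muscle lies under the mucosa, and the part of the dissection in this result was not tested.

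Markers of enteric neurons and glia were lower in VC+ in 14 of 15 means, with a median of -0.76, and 6 of 9 tested had an unadjusted p under 0.05 with a lower mean, beside 6.33%. Ret, the receptor that enteric neurons need to develop, measured 7.45, 7.28, 8.48 and 8.01 in VC+ against 7.89, 9.98, 8.90 and 9.08 in VC-, a difference of -1.16 ± 0.331 (SE). The neuronal genes Stmn2, Syt1 and Elavl4 differed by -1.5 ± 0.5, -1.33 ± 0.486 and -1.43 ± 0.546 (SE). Nefl, the light neurofilament chain, measured 2.31, 2.28, 3.60 and 4.77 in VC+ against 4.65, 5.71, 5.32 and 6.03 in VC-. Its unadjusted p of 0.000311 was the lowest among genes with a lower mean in VC+ (adjusted p = 0.303). Among enteroendocrine markers, 12 of 15 means were lower in VC+. Cpe, a carboxypeptidase that processes hormones and neuropeptides, and Scg3, a granin of secretory granules, which neurons also make, differed by -1.04 ± 0.363 and -1.05 ± 0.377 (SE). Without VC- replicate 2 the median of the neuronal list was -0.50 and 2 of 9 had an unadjusted p under 0.05 with a lower mean, beside 2.73%.

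**Figure D4:**
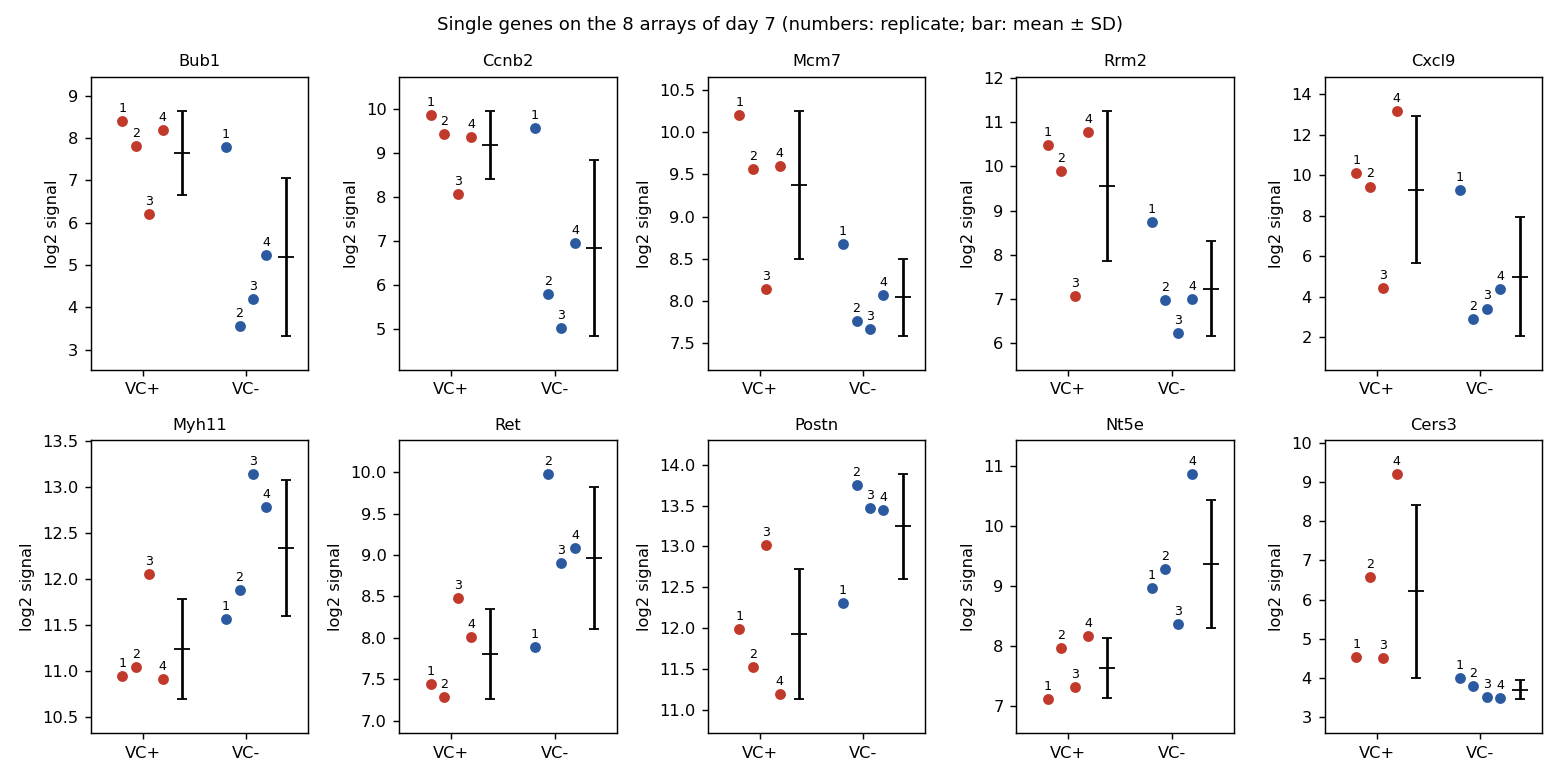
Log2 signal of 10 genes on the 4 VC+ and 4 VC- arrays of day 7 (points numbered by replicate; bar, mean ± SD). VC- replicate 1 lies at or near the VC+ range for Bub1, Ccnb2, Cxcl9 and Ret, while the groups do not overlap for Nt5e and Cers3.

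Interferon-response genes were higher in VC+ in 30 of 31 means, with a median of 0.89, and 4 of 29 tested had an unadjusted p under 0.05 with a higher mean, beside 7.86%. Cxcl9, a chemokine that interferon gamma induces and that draws T cells, measured 10.11, 9.45, 4.45 and 13.19 in VC+ against 9.29, 2.89, 3.42 and 4.40 in VC-. The mean difference was 4.30 ± 1.46 (SE; adjusted p = 0.303), with VC+ replicate 3 near the low VC- arrays and VC- replicate 1 near the high VC+ ones. Cxcl10, Cxcl11 and the GTPase Gbp6 differed by 2.38 ± 0.988, 2.05 ± 0.781 and 1.91 ± 0.899 (SE). Of 17 genes of antigen presentation on MHC class I and the immunoproteasome, 16 means were higher in VC+ with a median of 0.54. Of these 17, all tested, 1 had an unadjusted p under 0.05 with a higher mean, beside 7.86% of all tested genes. It was Erap1, which trims peptides for class I (difference 0.72 ± 0.26, SE). The immunoproteasome subunit Psmb10 differed by 0.99 ± 0.486 (SE). Of 14 MHC class II genes, 10 means were higher, beside 66.3% of all genes, with a median of 0.42. Of 10 tested, 0 had an unadjusted p under 0.05 with a higher mean. With each array left out the class II median was 0.09 to 0.665. H2-Eb1, a class II chain, measured 11.70, 11.31, 10.27 and 12.34 in VC+ against 11.18, 7.51, 10.26 and 11.54 in VC-. Without VC- replicate 2 the interferon median was 0.27, and 2 of 29 had an unadjusted p under 0.05 with a higher mean, beside 4.29%. Without VC+ replicate 3 it was 1.22, and 2 of 29 were called, beside 0.649%. That array lay near the VC- arrays, so leaving it out widens the difference by construction and gives no support.

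Medians of the leukocyte lists over all members on the array lay between -0.19 and 0.08 with all 8 arrays. Over the tested members only, they were 1.04 for neutrophils (5 genes), 0.54 for T cells (6) and 0.56 for mast cells (2). For B and plasma cells (11) the median was 0.16, and for macrophages and monocytes (20) it was -0.19. Macrophage and monocyte markers gave a median of -0.19, with 8 of 24 means higher in VC+. Fcgr1 (a receptor for IgG) and Ccr2 (the receptor of recruited monocytes) differed by 1.17 ± 0.424 and 1.00 ± 0.422 (SE), and Mrc1 (the mannose receptor of resident macrophages) by -1.49 ± 0.562 (SE). Ccr2 was 8.78 on VC+ replicate 4, against 5.9 to 6.42 on the other VC+ arrays. Mrc1 was 13.11 on VC- replicate 2, against 9.02 to 11.28 on the other VC- arrays. With each array left out, the difference was 0.33 to 1.3 for Ccr2 and -2.17 to -0.81 for Mrc1. The neutrophil gene S100a8 measured 10.19, 12.98, 10.94 and 14.29 in VC+ against 8.13, 15.23, 9.44 and 10.46 in VC-, where VC- replicate 2 was the highest of the 8 arrays. The difference was 1.29 with all arrays and 2.76 without that array, called in neither fit. Over the neutrophil list the median was 0.02 with all arrays and 0.50 without VC- replicate 2, when 4 of 5 tested markers had an unadjusted p under 0.05 with a higher mean in VC+, beside 4.29%, against 0 of 5 with all arrays. T cell markers gave a median of 0.08 and markers of B and plasma cells 0.04. Pf4, a platelet chemokine, differed by -1.87 ± 0.717 (SE).

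Cytokines and PPAR γ targets were compared by exact permutation tests for the genes that the study names singly. Il1b, the interleukin that inflammasomes release, was 10.19, 11.91, 9.26 and 12.74 in VC+ against 8.63, 12.55, 6.83 and 11.08 in VC- (difference 1.25, exact p = 0.457). Il6 was 8.47, 8.39, 9.55 and 12.65 in VC+ against 8.10, 12.87, 7.78 and 9.15 in VC- (difference 0.29, exact p = 0.714), and the groups overlapped almost wholly. Tnf, which did not pass the filter on variable genes, was 2.51, 4.89, 2.38 and 4.60 in VC+ against 2.39, 2.37, 2.36 and 3.61 in VC- (difference 0.91, exact p = 0.2). Irak1, a kinase of interleukin-1 receptor signalling, differed by 0.10 (exact p = 0.543). For the PPAR γ target genes, Fabp2, the intestinal fatty acid binding protein, was 12.58, 12.45, 12.15 and 9.56 in VC+ against 13.26, 8.30, 12.51 and 11.44 in VC- (difference 0.31, exact p = 0.743), and Plin2, the lipid droplet coat, was 10.32, 9.80, 10.07 and 10.76 in VC+ against 10.30, 11.06, 10.57 and 10.85 in VC- (difference -0.46, exact p = 0.143). Over the 7 genes the adjusted p was 0.7 or 0.8, and all tests were two-sided. In the list of inflammatory cytokines and receptors, 22 of 42 means were higher in VC+ (median 0.02). Il18bp, the decoy of interleukin-18, differed by 1.73 ± 0.746 (SE), and the receptor Il1r1 and the macrophage growth factor Csf1 by -1.31 ± 0.5 and -0.78 ± 0.364 (SE). Il1r1 was 12.10 on VC- replicate 2, against 8.57 to 9.78 on the other VC- arrays and 7.95 to 9.29 in VC+. With each array left out, the difference was -1.77 to -0.59 for Il1r1 and -1.18 to -0.54 for Csf1.

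Of 51 PPAR partners and target genes, 35 means were higher in VC+ at day 7, where 66.3% of all genes had a higher mean. The median was 0.25, against 0.03 over all genes, and without VC- replicate 2 it was -0.01. Of 46 tested, 1 had an unadjusted p under 0.05 with a higher mean, beside 7.86%, and 0 with a lower one, beside 6.33%. This was Acaa1b, a peroxisomal thiolase of fatty acid oxidation, at 7.87, 7.94, 2.45 and 2.44 in VC+ against 3.41, 2.93, 2.45 and 2.57 in VC-. Only VC+ replicates 1 and 2 were high. Of 42 promoters found for this list, 23.8% held AGGTCA, the letters of a nuclear receptor site, on either strand, against 13.8% of all promoters. The DR1 element, the direct repeat of those letters with 1 base between that PPAR and the retinoid X receptor bind, stood in 0% of the 42, against 0.037% of all. Fabp5, Acsl5 and Vldlr, which bind, activate and take up lipid, differed by -1.02 ± 0.504, 0.34 ± 0.176 and -0.65 ± 0.369 (SE). On day 2, 4 genes (0.044%) were called, all lower in VC+, and on day 0, 1 gene (0.011%) was called, Agr3, also lower. The day 2 count was 0 with Hoxb13 as a covariate and with the replicate block, and the day 0 count was 0 with the block and without the arrays with Prss2 signal. At day 2 Acaa1b differed by -6.34, the carnitine and monocarboxylate carrier Slc16a9 by -3.14, the fatty acid binding protein Fabp1 by -2.56 and Slc35e3 by -2.00, and their day 7 differences were 2.33 (adjusted p = 0.327), -0.20 (0.834), 0.09 (0.912) and -0.25 (0.63). Slc35e3 was 6.14, 6.48, 6.25 and 5.93 in VC+ and 6.04, 6.23, 6.52 and 7.01 in VC- at day 7. Agr3 lay between 2.16 and 2.38 on all 8 arrays of day 7.

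Epithelial lists had higher means in VC+ with all 8 arrays and medians near 0 or below without VC- replicate 2. The medians were 0.79 and -0.05 for tight junction and adhesion genes, 0.60 and 0.01 for mucins and O-glycan enzymes, 0.50 and -0.13 for colonocyte markers, 0.35 and -0.51 for goblet cell markers, 0.37 and -0.02 for xenobiotic metabolism, and 0.16 and -0.10 for ion and solute transport. On that array the colonocyte list mean was -2.72, against 0.05 to 0.32 on the other VC- arrays and -0.59 to 0.19 on the VC+ arrays. Genes that were also lower on other VC- arrays were Kcnn4, a potassium channel that drives chloride secretion, at 10.04, 10.16, 9.22 and 8.91 in VC+ against 10.15, 4.99, 7.21 and 7.80 in VC-, and Cldn2, a claudin that forms cation pores, at 8.09, 8.21, 7.22 and 5.23 in VC+ against 7.81, 2.29, 5.71 and 2.46 in VC-. For both, VC- replicate 1 lay within the VC+ range. Cldn15, Galnt3 (an O-glycan transferase) and Spdef (a goblet cell factor) differed by 1.69 ± 0.64, 1.66 ± 0.591 and 1.89 ± 0.9 (SE). Kcnq1, another potassium channel, differed by 1.54 ± 0.688 (SE).

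**Figure D5:**
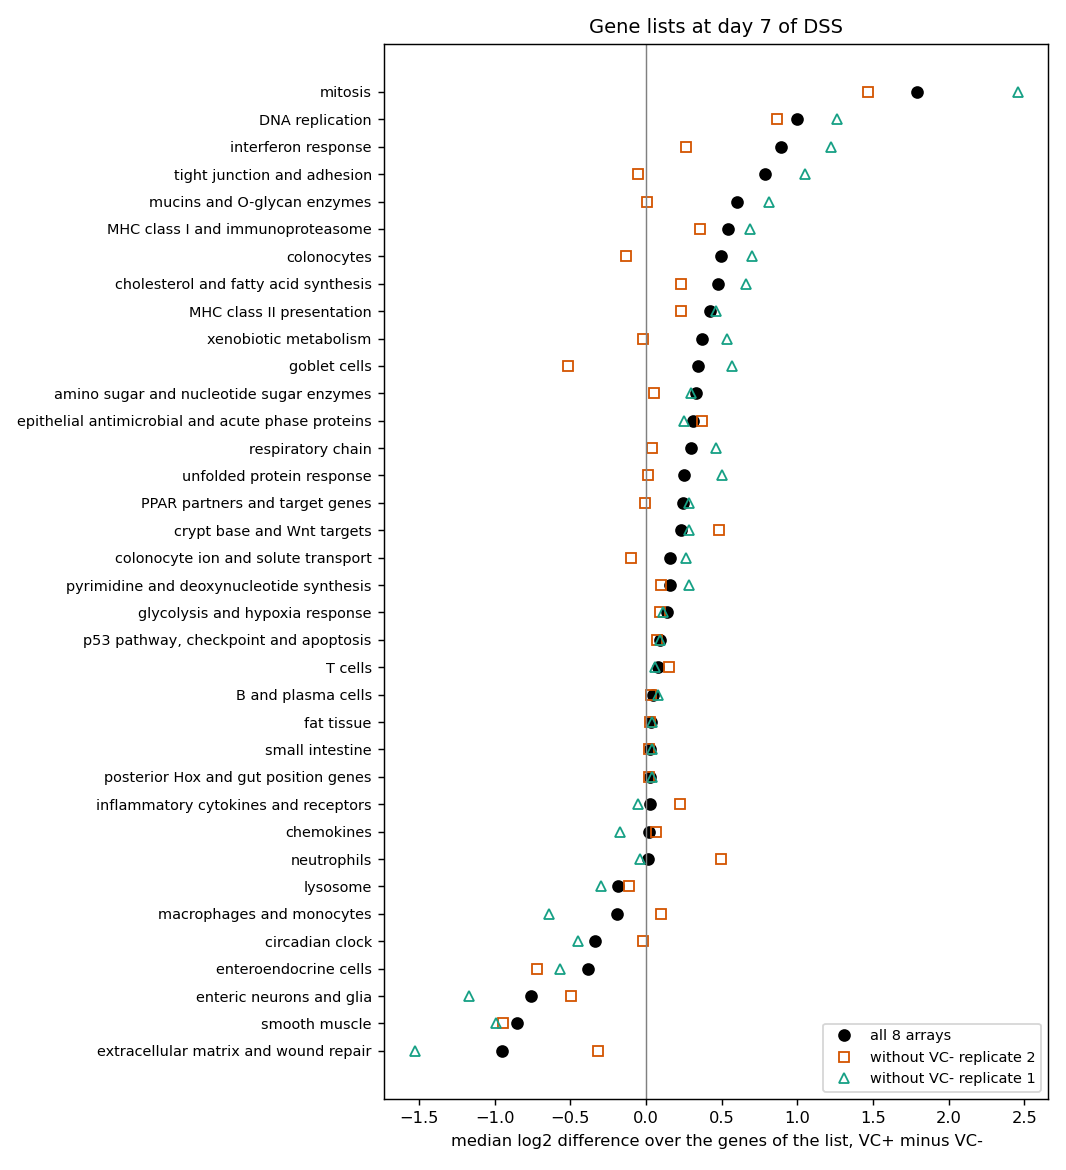
Median log2 difference (VC+ minus VC-) at day 7 over the genes of each list with at least 5 tested members, with all 8 arrays and without VC- replicate 2 or 1. Mitosis (1.79) and DNA replication (1.00) keep medians of at least 0.86 in all 3, whereas tight junction, mucin and colonocyte lists move to between -0.13 and 0.01 without VC- replicate 2.

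Other lists were described by their medians. Cholesterol and fatty acid synthesis gave 0.48, with 25 of 29 means higher in VC+. Of 28 tested, 1 had an unadjusted p under 0.05 with a higher mean, beside 7.86% of all tested genes. This was Idi1, an isomerase of the mevalonate pathway (difference 1.17 ± 0.437, SE). Idi1 was 9.33 on VC- replicate 2, against 10.58 to 12.11 on the other VC- arrays, and its difference was 0.68 to 1.61 with each array left out. Crypt base and Wnt target genes gave 0.23 and the antimicrobial and acute phase list 0.31. Ccnd1, the G1 cyclin, and Cdca7, a Myc and E2F target, differed by 1.56 ± 0.668 and 1.45 ± 0.551 (SE), and Nkd1, an inhibitor that Wnt signalling induces, by -0.93 ± 0.34 (SE). Ccnd1 was 5.44 on VC- replicate 2, against 8.87 to 10.39 on the other VC- arrays and 9.36 to 10.47 in VC+. With each array left out, the difference was 0.54 to 2.19 for Ccnd1 and 0.97 to 2.01 for Cdca7. In the p53, checkpoint and apoptosis list (median 0.09) the members of the cell cycle, Ccne2, Chek1 and Cdk4, differed by 1.69 ± 0.683, 1.08 ± 0.438 and 0.61 ± 0.233 (SE), and Zmat3, a p53 target, by -0.46 ± 0.189 (SE). Ccne2 was 3.54 on VC- replicate 2, against 5.74 to 8.44 on the other VC- arrays, and its difference was 0.81 to 2.44 with each array left out. Lysosome genes were lower in VC+ in 68 of 91 means (median -0.18), and 6 of 71 tested had an unadjusted p under 0.05 with a lower mean, beside 6.33%. In the fit without VC- replicate 2, 0 of 71 did, beside 2.73%, and without VC- replicate 1, 10 of 71 were called lower, beside 7.38%. The cathepsins Ctsb, Ctsf and Ctsd differed by -1.32 ± 0.478, -1.16 ± 0.47 and -0.69 ± 0.299 (SE), and Naglu, which degrades heparan sulfate, by -0.72 ± 0.272 (SE). The unfolded protein response gave 0.25, with Asns, the asparagine synthetase, at a difference of 0.53 ± 0.194 (SE). The respiratory chain gave 0.30, glycolysis and hypoxia 0.14, the circadian clock -0.34, chemokines 0.02 and amino sugar enzymes 0.33.

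The 4 VC+ and 4 VC- arrays did not overlap for 82 tested genes with VC+ above VC- (0.901%) and 41 with VC+ below (0.451%). None of these genes is in the mitosis or replication list. Under random labels such a separation, in either direction, has a probability of 0.0286, the smallest two-sided p of the exact permutation test (70 splits). The shares found are smaller than that, so these genes are a description and no evidence of a difference. The largest difference among the 82 was that of Cers3, a ceramide synthase of barrier epithelia, at 4.55, 6.58, 4.52 and 9.20 in VC+ against 4.00, 3.81, 3.52 and 3.5 in VC- (difference 2.50 ± 0.689, SE). Ifi213, an interferon-inducible gene, was 4.56, 4.66, 4.30 and 7.62 in VC+ against 2.85, 2.77, 3.4 and 2.90 in VC-. VC+ replicate 4 was the highest array for both. The next were Vcpkmt (a lysine methyltransferase), Dnph1 (a nucleotide hydrolase) and Poc1a (a centriole protein), with differences of 1.45 ± 0.426, 1.40 ± 0.433 and 1.25 ± 0.323 (SE). The remaining 10 of the 15 largest differences were those of Mrpl49, Prxl2c, Plekha7, Cd69, Setd5, Fadd, Cyb561d2, Acy1, Mthfd1l and Ccdc12, at 0.93 to 1.15. Prxl2c was -1.05 when the probe set with the highest mean stood for the gene. Cd69 (an early activation marker of lymphocytes) was 4.77, 4.87, 4.11 and 6.24 in VC+ against 4.02, 4.09, 3.55 and 4.09 in VC-, and Fadd (the adaptor of death receptors) 7.01, 7.21, 7.35 and 7.00 in VC+ against 6.77, 4.65, 6.59 and 6.42 in VC-. Adjusted p-values of these 15 lay between 0.303 and 0.33.

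Among the 41 with VC+ below, Nt5e, the ecto-enzyme CD73 that makes adenosine, had the largest difference, at 7.11, 7.96, 7.31 and 8.16 in VC+ against 8.96, 9.27, 8.37 and 10.86 in VC- (difference -1.73 ± 0.801, SE; adjusted p = 0.344). It differed by -1.38 on day 0 and by 1.43 on day 2. Rnf152, a lysosomal ubiquitin ligase, was 4.82, 5.03, 5.13 and 4.75 in VC+ against 6.22, 6.56, 5.63 and 6.07 in VC-, a difference of -1.19 ± 0.435 (SE) beside -1.98 on day 0. Akap6 (a kinase anchor of muscle and nerve), Kank1 (a regulator of actin) and Cplx1 (complexin of synaptic vesicles) differed by -1.05 ± 0.36, -0.90 ± 0.257 and -0.89 ± 0.265 (SE). Msrb2, Mpdz, Zfp383, Snapc1, Map4k5, Smad5, Ptms, Poglut3, Fgfr2 and Tspan18 followed at -0.80 to -0.57. Smad5, a mediator of BMP signals, was 5.98, 5.75, 5.78 and 5.88 in VC+ against 6.19, 7.20, 6.45 and 6.25 in VC-, and Fgfr2, the epithelial receptor of fibroblast growth factors, 9.29, 9.33, 9.37 and 8.62 in VC+ against 9.39, 10.25, 9.88 and 9.53 in VC-. Adjusted p-values of these 15 lay between 0.303 and 0.424.

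Epgn, named after its values were seen, was the gene called without VC- replicate 2, and also with Vil1 as a covariate. It encodes epigen, a ligand of the EGF receptor in epithelia. Epgn measured 4.67, 4.81, 4.52 and 6.24 in VC+ against 2.55, 5.23, 2.08 and 3.35 in VC-, where replicate 2 was the high array. The difference was 1.76 ± 0.476 (SE; adjusted p = 0.303) with all arrays and 2.40 (adjusted p = 0.0107) without it. VC- replicate 2 was the only VC- array within the VC+ range, so leaving it out separates the groups by construction and gives no support. Vil1 as a covariate sets apart the same array (8.46, against at least 12.04 on the other arrays of day 7), so that call is not separate support. Sprr1a, a cornified envelope protein induced in injured epithelium, measured 8.77, 9.10, 7.61 and 8.77 in VC+ against 8.33, 5.94, 5.60 and 7.86 in VC-, a difference of 1.63 ± 0.629 (SE).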

How the data were processed

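RNA of mouse colon was hybridised to 1 Affymetrix array per sample. Per the labels and methods, the authors normalized the arrays by GC-RMA in R 2.10.1 and deposited log2 values for 45101 probe sets, with array medians of 3.41 to 3.55. GC-RMA places unexpressed genes near a floor (41.7% of values were under log2 3), so differences of dim genes are compressed. Arrays carry no read depth, and their number limits the precision. Every column was matched to a sample. Probe sets with 1 symbol in the platform annotation (34958, against 932 with several and 9211 unlisted) gave 18194 genes, 1 probe set each with the largest interquartile range, of which the 50% most variable were tested.

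The 22 arrays entered 1 limma fit (version 3.58.1, R 4.3.3) with a mean for each of the 6 groups and two-sided tests, with Benjamini-Hochberg adjustment over all genes tested in a contrast and a threshold of 0.05. Genes that the study names singly were compared by an exact permutation test. The fit was tested on simulated data. Alternatives were no filter, another probe set per gene, other weights, normalization, floor and covariates, and each array left out in turn. Vil1 as a covariate was chosen after seeing the data.

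The comparison and the 41 gene lists were chosen with earlier results of these data known. Genes were named by rule: the 15 largest differences in each direction among genes whose arrays did not overlap, up to 4 members of each list with the largest moderated t, those singly named genes, and genes of the array checks. Prpf4, Ska3, Nefl, Epgn, Fabp1 and Agr3 were named after their values were seen. Promoter letters were searched on both strands of RefSeq sequence.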

Additional observations from a re-analysis of the deposited data

Results flagged for a closer look

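Single arrays lay apart from the other 3 arrays of their group by Dixon's criterion for 24 of the genes examined (11 in VC+ and 13 in VC-) and for 10 of the gene lists (5 in VC+ and 5 in VC-). This was out of 112 genes and 41 lists, each examined in 2 groups, and the criterion picks about 1 in 20 groups by chance. In what follows the range of the other 3 arrays is given in parentheses, on the log2 scale, and list means are relative to the mean of the 22 arrays.

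VC+ replicate 4 lay apart for Ifi213 at 7.62 (4.30 to 4.66), Fgfr2 at 8.62 (9.29 to 9.37), Fabp2 at 9.56 (12.15 to 12.58), Vldlr at 6.75 (7.95 to 8.14), Prss2 at 11.20 (3.66 to 3.89) and Hoxb13 at 6.88 (3.07 to 3.31). Its list means lay apart for goblet cell markers at -1.65 (-0.59 to -0.48), pancreas markers at 4.81 (-1.46 to -1.36), PPAR partners and targets at -0.46 (0.12 to 0.14) and glycolysis and hypoxia at 0.77 (0.23 to 0.27). VC+ replicate 3 lay apart for Lig1 at 6.15 (7.65 to 7.94), Myh11 at 12.05 (10.91 to 11.04), Myl9 at 13.38 (11.53 to 11.79), Syt1 at 4.62 (3.49 to 3.65) and the smooth muscle list at -0.12 (-1.31 to -1.19), and VC+ replicate 2 for Galnt3 at 7.42 (6.44 to 6.47).

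VC- replicate 2 lay apart for Vil1 at 8.46 (12.26 to 12.85), Prss2 at 14.74 (3.59 to 4.07), Mrpl49 at 4.65 (7.38 to 7.73), Fadd at 4.65 (6.42 to 6.77), Cyb561d2 at 4.02 (5.91 to 6.07) and Map4k5 at 7.22 (5.25 to 5.53). Its list means lay apart for colonocyte markers at -2.72 (0.05 to 0.32), pancreas markers at 7.96 (-1.59 to -0.998), amino sugar enzymes at -0.97 (-0.07 to 0.08), tight junction and adhesion at -2.81 (-0.13 to 0.25) and ion and solute transport at -2.01 (-0.26 to -0.01). VC- replicate 1 lay apart, towards the VC+ arrays, for Orc1 at 4.29 (3.24 to 3.27), Chek1 at 4.53 (3.12 to 3.25), Cxcl11 at 8.34 (5.33 to 5.57) and Cpe at 11.96 (13.20 to 13.39). VC- replicate 3 lay apart for Cd69 at 3.55 (4.02 to 4.09), and VC- replicate 4 for Tnf at 3.61 (2.36 to 2.39) and Hoxb13 at 9.62 (2.86 to 3.81).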

How the results depend on the processing

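At day 7 the number of called genes stayed at 0 with no filter, another probe set per gene, only the compared groups in the fit, a robust trend, quantile normalization, a floor at log2 3, the replicate block (0) and Hoxb13 as a covariate. It was 1592 with array quality weights (675 higher and 917 lower in VC+), 1 without the 3 arrays with Prss2 signal, 1 with Vil1 as a covariate, and 0 to 1213 with each array left out. The cause was not tested. Genes at an unadjusted p under 0.05 numbered 1943 with no filter, 320 with only the compared groups, 3008 with array weights, 656 without the Prss2 arrays, 735 with Vil1 and 551 to 3027 with each array left out. The mitosis count was 16 with only the compared groups, 7 without the Prss2 arrays and 23 to 35 with arrays left out, and the replication count was 17, 17 and 17 to 34.

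On day 0 the called count was 3 with no filter, 686 with weights, 0 with the replicate block, 0 without the Prss2 arrays and 0 to 3 with arrays left out. On day 2 it was 1 with only the compared groups, 11 with weights, 0 with the block, 0 with Hoxb13 and 1 to 250 with arrays left out. For day 7 minus day 0 it was 1 with no filter, 792 with weights, 1 with Hoxb13 and 0 to 17 with arrays left out. Equal replicate numbers did not pair the day 7 arrays, whose deviations correlated at 0.642, -0.513, 0.444 and -0.0132 for numbers 1 to 4.

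These differences changed sign. Prxl2c was -1.05 with the highest-mean probe set. With Vil1 as a covariate Pparg was -0.25 and Fabp2 -0.75. Without the Prss2 arrays Fabp2 was -0.013 and Irak1 -0.019. Without VC- replicate 2 Pparg was -0.11, Fabp2 -0.72 and Vil1 -0.062, and Pparg was -0.24 without VC+ replicate 1 and -0.15 without VC+ replicate 2. Il6 was -0.67 without VC+ replicate 4, -0.17 without VC- replicate 1 and -0.27 without VC- replicate 3. With each array left out, the highest difference was 1.12 for Pparg, 1.01 for Fabp2, 1.43 for Il6 and 1.41 for Vil1.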

Other observations

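Genes of protein synthesis, grouped by symbol after their values were seen, also had higher means in VC+ at day 7. Of 52 genes of nucleolar ribosome biogenesis, 49 means were higher (median 0.31, against 0.03 over all genes), and 13 of 42 tested had an unadjusted p under 0.05, beside 7.86% of all tested genes. Fbl, the nucleolar methyltransferase fibrillarin, measured 11.97, 11.67, 10.95 and 11.50 in VC+ against 11.37, 10.46, 10.34 and 10.61 in VC-, and Noc2l, a nucleolar factor of the large subunit, 8.41, 8.32, 7.52 and 7.92 in VC+ against 7.51, 6.75, 7.36 and 7.14 in VC-. For Noc2l the groups did not overlap. All 19 aminoacyl-tRNA synthetases had higher means in VC+ (median 0.45), as did 38 of 42 cytosolic ribosomal proteins (median 0.19) and 30 of 36 initiation factors (median 0.25). Without VC- replicate 2 these medians were 0.31 for ribosome biogenesis, 0.26 for synthetases, 0.20 for ribosomal proteins and 0.21 for initiation factors. With all 8 arrays, 7 of 17 tested synthetases, 3 of 19 ribosomal proteins and 2 of 30 initiation factors had an unadjusted p under 0.05. All of these had a higher mean in VC+, beside 7.86% of all tested genes. None of the genes of these groups was called.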
